A study of Mus musculus with 2 samples.

Results

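Cyp24a1, Vdr, Rxra, Rxrb and Cyp27b1, the 5 genes described here of 33904 in the count matrices, were taken by symbol as the core of the vitamin D response, and all 5 had rows in both libraries. They were followed in single-cell RNA-seq of mouse dorsal skin, with 1 Ctrl library and 1 AD library. Both came from female C57BL/6J mice aged 7 weeks whose back had been depilated with a cream, and both were taken on day 10. Ctrl skin received 100% ethanol each day, and AD skin received MC903 (calcipotriol, a vitamin D analogue) in ethanol at 4.5 nmol per daily application. MC903 is thus both the inducer of the AD model and a direct ligand of the pathway, and how many mice stood behind a library was not stated. The set was selected on the Cyp24a1 levels of these same libraries, which earlier results had shown, so the difference in Cyp24a1 between Ctrl and AD is a description. With 1 library per group there was no replicate check, no test and no p-value. Levels are in CPM (UMIs of a gene scaled to 1000000 UMIs of the cells summed) with a 95% Poisson interval, and each share of cells with an exact binomial interval. These intervals cover counting error only.

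The vitamin D receptor, encoded by Vdr, is a nuclear receptor that binds DNA as a dimer with a retinoid X receptor such as Rxra or Rxrb. Cyp27b1 makes the active hormone, calcitriol, and Cyp24a1 starts its breakdown. Cyp24a1 is the best known gene switched on by the liganded receptor, so that the pathway limits itself. Keratinocytes (KCs) are known to carry the receptor and both enzymes, and topical calcipotriol is also used on human skin.

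On GRCm38, with the GENCODE M21 annotation, Cyp24a1 (ENSMUSG00000038567) lies on chromosome 2 at 170482708 to 170497145 on the minus strand, where Pfdn4 overlaps it on the other strand. Vdr (ENSMUSG00000022479) lies on chromosome 15 at 97854425 to 97910630 on the minus strand. Rxra (ENSMUSG00000015846) lies on chromosome 2 at 27676440 to 27762957, Rxrb (ENSMUSG00000039656) on chromosome 17 at 34031812 to 34038399 and Cyp27b1 (ENSMUSG00000006724) on chromosome 10 at 127048250 to 127053006, all on the plus strand. No gene overlapped any of the 5 on its own strand.

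RefSeq promoter windows on GRCm38.p6 matched 4 of the 5 genes, without Cyp24a1. The 250 bases upstream of the start are shown for the receptor and for the enzyme that makes its ligand, since these promoters differed in the motifs searched. Capitals mark GGGCGG, the core of a GC box, and TATATA, which resembles the box of that name, each searched on both strands. The Vdr window is chr15:97908297-97908546 on the minus strand, inside the longer GENCODE gene, and the Cyp27b1 window is chr10:127047996-127048245 on the plus strand.
Vdr: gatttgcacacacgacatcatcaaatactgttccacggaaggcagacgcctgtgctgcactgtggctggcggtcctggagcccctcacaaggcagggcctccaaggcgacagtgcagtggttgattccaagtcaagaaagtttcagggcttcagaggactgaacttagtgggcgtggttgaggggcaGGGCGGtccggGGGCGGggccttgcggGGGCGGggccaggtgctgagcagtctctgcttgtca
Cyp27b1: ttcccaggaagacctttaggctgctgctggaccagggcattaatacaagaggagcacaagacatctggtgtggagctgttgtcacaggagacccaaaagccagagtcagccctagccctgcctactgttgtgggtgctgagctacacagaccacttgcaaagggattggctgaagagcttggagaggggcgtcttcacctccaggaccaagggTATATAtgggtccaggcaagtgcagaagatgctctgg
The Vdr window held 3 GC box cores and no TATATA or TATAAA, and its GC content was 61.2%. The Cyp27b1 window held 1 TATATA, which began 37 bases upstream of the start, and no GC box core, with a GC content of 54.4%. Of 32851 promoter windows of this length, 32.7% held GGGCGG, 5.25% held TATATA and 12.4% held TATAAA. The receptor is known to bind DR3 elements, a pair of half-sites in the same direction with 3 bases between them. DR3 was found on either strand of 13 windows (0.0396%) and in none of those of the 4 genes, which says only that these letters were not in the windows.

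The matrices held 12598 barcodes in Ctrl and 8778 in AD, of which 11399 and 8179 remained after the study's filter on genes and mitochondrial UMIs per cell. The median depth of these cells was 7813 and 6330 UMIs. Cells were assigned to a type where at least 3 of its 6 markers were detected and no other type had as many. This gave 5973 Ctrl and 4571 AD fibroblasts (dFBs), 2104 and 402 KCs, and 10 other types with at least 20 cells in a library. Every marker of these types was detected in their cells, but the summed level of the 6 dFB markers was 20297 CPM in Ctrl dFBs and 3342 CPM in AD dFBs. The median ratio between AD and Ctrl over genes with at least 10 CPM in either, on the log2 scale, was -0.09 in dFBs, -0.14 in KCs, -0.22 in T cells, -0.17 in dendritic cells and -0.27 in mast cells, so ratios below are to be read against those shifts. The libraries shared 35 barcodes, and leaving them out changed no value of the 5 genes beyond its counting interval.

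Cyp24a1 was all but absent from Ctrl skin. Its 20 UMIs there all lay in 11 KCs, with at most 5 in a cell, which gave 0.626 CPM (0.382 to 0.967). Ctrl dFBs had 0 UMIs in 5973 cells, which allows a level of up to 0.053 CPM and a share of up to 0.0502%. In AD, 11833 UMIs were counted in 883 cells. Of these UMIs, 54.1% lay in KCs and 32.3% in dFBs, although AD dFBs outnumbered KCs.

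AD KCs were highest in Cyp24a1, with 1131 CPM (1104 to 1159) and a UMI in 232 of 402 cells, or 57.7% (52.7 to 62.6). Adipocytes followed with 301 CPM (277 to 326) and 22.6% of 106 cells. AD dFBs had 102 CPM (98.6 to 105) and 9.76% of cells (8.91 to 10.7), at least 1921-fold above the limit that 0 UMIs allowed in Ctrl dFBs. Dendritic cells had 338 CPM (278 to 407), close to adipocytes with overlapping intervals, but in 7 of 21 cells only. Macrophages had 51.4 CPM (41.8 to 62.4) in 20 of 218 cells and Schwann cells 49.3 CPM (26.2 to 84.3) in 4 cells. Melanocytes had 64.5 CPM (37.6 to 103) in 3 cells, but 15 of their 17 UMIs lay in 1 cell. With overlapping intervals, these 3 types could not be ranked. Endothelial cells and pericytes or smooth muscle cells had 8.16 CPM each.

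T cells served as the reference for free RNA, since they had little Vdr. They had 11 Cyp24a1 UMIs, 4.18 CPM, in 3.07% of 358 cells (1.54 to 5.43), never more than 1 UMI in a cell, at a median of 6216 UMIs. The share in pericytes was 6.82% (3.16 to 12.5) and again no cell had 2 UMIs. Endothelial cells had 13 cells with a UMI (3.31%), a share inside the interval of T cells, and 17 of their 30 UMIs lay in 1 cell. Mast cells had 0 of 48. The shares of these types had intervals that overlapped that of T cells, and the part of free RNA in their values was not tested. When every cell was thinned to 3000 UMIs, the share was 44.4% in KCs, 15.8% in adipocytes, 6.69% in dFBs, 5.03% in macrophages and 1.5% in T cells.

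The Cyp24a1 signal was concentrated in few cells. Among AD dFBs, 446 of 4571 cells had a UMI, 245 had at least 2 and the highest had 165. The top 1% of dFBs, 46 cells, held 54.9% of their UMIs. Among AD KCs, the top 10% (41 cells) held 75.4% of the UMIs, and the highest cell had 374. The 68 KCs with at least 21 UMIs held 87.0%, and the 10 adipocytes with as many held 91.0% of the adipocyte UMIs. A bright minority thus stood beside cells in which Cyp24a1 was not detected at this depth.

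**Figure D1:**
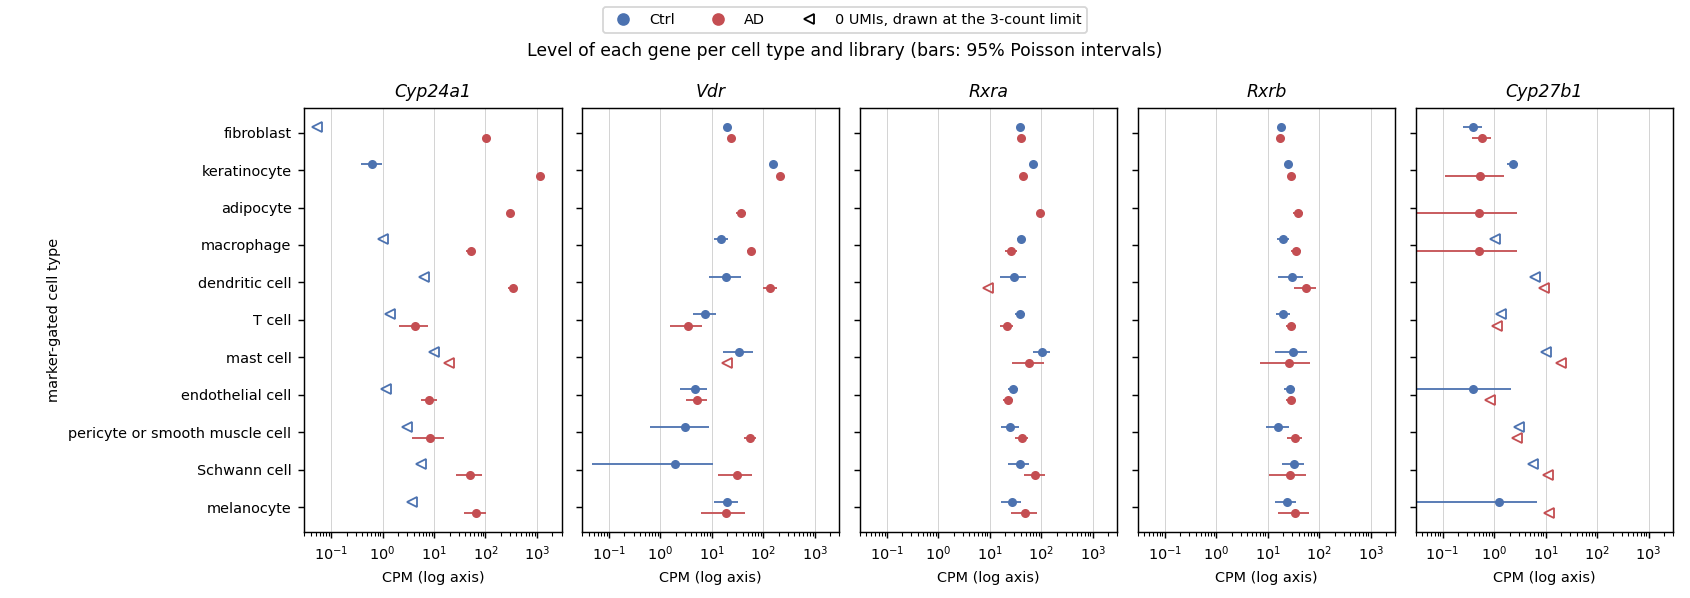
Level of each of the 5 genes in CPM (log axis) by cell type, in Ctrl (blue) and AD (red), with 95% Poisson intervals; open triangles stand at the 3-count limit of classes with 0 UMIs. Cyp24a1 is seen in AD, highest in KCs at 1131 CPM, while Rxra and Rxrb are seen in most types of both libraries. Cyp27b1 stays below 3 CPM wherever it was detected.

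**Figure D2:**
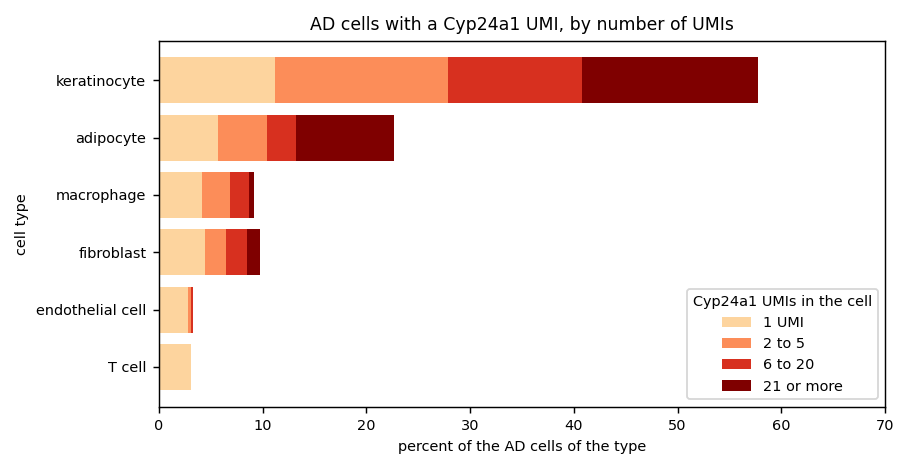
Percent of the AD cells of 6 types with 1, 2 to 5, 6 to 20 or at least 21 Cyp24a1 UMIs, as stacked bars from 0. KCs reach 57.7%, with 68 cells in the highest class against 59 dFBs and 10 adipocytes, and the T cell bar, 3.07%, consists of single UMIs.

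Vdr, the receptor, had its highest level in KCs in both libraries. KCs held 77.0% of its UMIs in Ctrl and 44.6% in AD, where dFBs held 32.7%. KCs had 152 CPM (148 to 157) in Ctrl and 214 CPM (202 to 226) in AD, a log2 ratio of 0.49 (0.40 to 0.58), with a UMI in 70.3% and 75.1% of cells. dFBs had 19.4 CPM (18.3 to 20.6) and 23.6 CPM (22.1 to 25.2), a log2 ratio of 0.28 (0.15 to 0.41). Their share of cells with a UMI was 12.9% in Ctrl and 12.2% in AD, with overlapping intervals, at a median depth of 8703 and 7204 UMIs. Thinned to 3000 UMIs, the shares were 5.18% and 5.45%, and thinned to 1000 UMIs they were 2.08% and 1.98%.

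Vdr was further apart between the libraries in several less abundant types. Pericytes or smooth muscle cells had 3 UMIs in 3 of 192 cells in Ctrl and 61 UMIs in 25 of 132 cells in AD, or 3.01 and 55.3 CPM, a log2 ratio of 4.20 (2.59 to 6.52). No cell held more than 8 of the 61 UMIs, and the AD level was 48.4 CPM without the highest cell. Macrophages had 15.2 CPM (11.03 to 20.4) in Ctrl and 58.5 CPM (48.3 to 70.2) in AD, a log2 ratio of 1.95 (1.43 to 2.48). KC markers summed to 91.3 and 30.8 CPM in the pericyte class of Ctrl and AD, and dFB markers to 728 and 623 CPM. In the macrophages, KC markers summed to 162 and 21.9 CPM and dFB markers to 675 and 90.5 CPM. The dFB markers were also lower in AD dFBs themselves, so the dFB sums cannot be compared between the libraries, and the part of RNA from other cells in these Vdr levels was not tested. Dendritic cells had 18.9 CPM in Ctrl and 137 CPM in AD, the latter from 45 UMIs in 21 cells, and Schwann cells had 1 and 8 UMIs, a log2 ratio of 4.01 (1.11 to 9.48). Mast cells had 10 UMIs in 4 Ctrl cells and 0 in 48 AD cells, which allows up to 19.5 CPM. T cells (7.35 and 3.42 CPM) and endothelial cells (4.64 and 5.16 CPM) had little Vdr in either library, and their ratios had intervals that included 0. In AD, KCs thus came first in Vdr, followed by dendritic cells. Macrophages and pericytes, whose intervals overlapped, lay above dFBs, and adipocytes had 37.2 CPM (29.2 to 46.8).

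Of the partners, Rxra was lower in AD KCs and close to Ctrl in dFBs. KCs had 68.2 CPM (65.3 to 71.1) in Ctrl and 44.5 CPM (39.2 to 50.4) in AD, a log2 ratio of -0.61 (-0.81 to -0.43). In dFBs, Rxra was at 37.8 and 40.1 CPM, and the log2 ratio was 0.08 (-0.01 to 0.18). Adipocytes, present only in AD with 106 gated cells, had 94.1 CPM (81.1 to 109) and a UMI in 75.5% of cells. Rxra was also lower in AD T cells (-0.84 log2, -1.36 to -0.33) and macrophages (-0.64, -1.14 to -0.15). Dendritic cells had 14 Rxra UMIs in Ctrl and 0 in AD, which allows up to 9.13 CPM there. These classes differed in makeup between the libraries, as given above for Vdr. Rxrb, the other partner, spanned 17.7 to 54.8 CPM over the AD types. In KCs it had 24.4 and 28.8 CPM and in dFBs 18.2 and 17.7 CPM, and both log2 ratios had intervals that included 0. Macrophages (0.86, 0.33 to 1.39) and pericytes (1.06, 0.18 to 2.01) were higher in AD.

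Cyp27b1, which makes the ligand, was near the limit of detection. In Ctrl KCs it had 73 UMIs in 61 of 2104 cells, 2.29 CPM (1.79 to 2.87). In AD KCs it had 3 UMIs, 0.530 CPM (0.109 to 1.55), a log2 ratio of -2.11 (-4.42 to -0.50). dFBs had 22 UMIs in each library, and no other named type had more than 1. All 73 Ctrl KC UMIs lay in the 1633 KCs whose Krt5 and Krt14 UMIs outnumbered those of Krt1 and Krt10 (basal keratins against those of upper layers), at 3.15 CPM. The other 471 Ctrl KCs had 0 Cyp27b1 UMIs, which allows up to 0.344 CPM.

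The KC classes of the libraries differed in makeup, and this touches each KC ratio above. KCs with more Krt5 and Krt14 than Krt1 and Krt10 were 77.6% of Ctrl KCs and 99% of AD KCs (398 cells). Within this state alone, Vdr had 172 CPM (Ctrl) and 214 CPM (AD), a log2 ratio of 0.31. Rxra had 65.1 and 44.2 CPM in this order, and Cyp27b1 3.15 and 0.536 CPM. In the other Ctrl KCs, Vdr was lower, with 873 UMIs (93.5 to 107 CPM), and Rxra higher at 76.2 CPM (70.5 to 82.2). How far the makeup of the KCs contributes to the remaining differences was not tested.

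The filter on cells also touched Vdr and Cyp24a1. The study left out cells with more than 6000 detected genes. In AD, 96 such cells carried dFB markers and had 225 CPM of Vdr (212 to 238), with a UMI in 99% of them, against 23.6 CPM in the dFBs that were kept. Their median depth was 51843.5 UMIs, and 10.4% of them had at least 3 markers of a second type. Cyp24a1 was lower in them than in kept dFBs, at 37.2 CPM (32.1 to 42.8), though 58.3% of these deep cells had a UMI. The 134 Ctrl dFBs over the limit had 30.7 CPM of Vdr (26.5 to 35.5). With all barcodes included, the log2 ratio of Vdr in dFBs was therefore 1.22 in place of 0.28.

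Among AD KCs, 105 cells with more than 6000 genes held 9920 Cyp24a1 UMIs, more than the 6406 of the 402 KCs kept. They had 1447 CPM (1419 to 1476) and a UMI in 88.6% of cells, but less Vdr than the kept KCs, 101 CPM (93.7 to 109). Of these cells, 28.6% had at least 3 markers of a second type. With all barcodes, the Vdr log2 ratio in KCs was 0.00087, so that the higher Vdr of AD KCs depended on this filter.

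**Figure D3:**
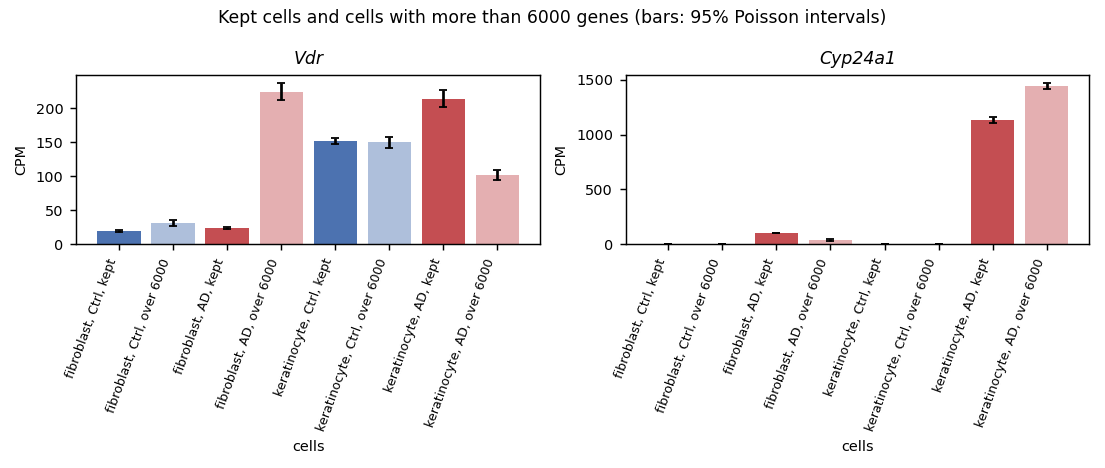
Vdr and Cyp24a1 in CPM (bars from 0, with 95% Poisson intervals) in dFBs and KCs that passed the filter and in those with more than 6000 genes, by library. The AD dFBs over the limit stand at 225 CPM of Vdr against 23.6 CPM in those kept, and the AD KCs over the limit are lower in Vdr and higher in Cyp24a1 than those kept.

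AD cells with and without a Cyp24a1 UMI were compared within the AD library, so that the difference between libraries did not enter. All AD skin had received the drug, so the split cannot set the response to it apart from other differences between the cells. Cells without a UMI were not shown to be unexposed or unresponsive. Cyp24a1 itself defined the groups and is not a result. Among 4353 Pdgfra-positive AD dFBs, 426 (9.79%) had a Cyp24a1 UMI, at 761 CPM. Their median depth was 9905.5 UMIs against 7163 UMIs in the 3927 without, and a deeper cell is more likely to show a UMI. Of 5373 Ctrl dFBs with Pdgfra, 0 had one. Of the 426 AD cells, 237 had at least 2 Cyp24a1 UMIs. Over all AD dFBs, 4.40% had 1 UMI, a share inside the interval of T cells (1.54 to 5.43). The part of free RNA in the dFBs with 1 UMI was not tested.

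Vdr was higher in dFBs with Cyp24a1, at 37.9 CPM (184 UMIs) against 21 CPM (660 UMIs) without and 19.1 CPM in Ctrl. The log2 ratio was 0.86 (0.61 to 1.09), and 0.46 when the groups were weighted to the same depth and 1 CPM was added. After thinning to 3000 UMIs, 9.54% of dFBs with Cyp24a1 and 5.02% of those without had a Vdr UMI. Rxra was slightly lower (33.8 against 41.3 CPM, log2 -0.29, -0.53 to -0.05), and Rxrb differed by less than the counting error (19.4 and 17.2 CPM). Cyp27b1 had 5 UMIs with and 15 without.

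Of 1811 genes with at least 100 CPM, 40 (2.21%) were at least 2-fold higher and 46 (2.54%) at least 2-fold lower in the Pdgfra-positive cells with Cyp24a1, with 1 CPM added to each level. Weighted to the same depth, these counts were 15 and 11. Among the 10 highest, Mmp3, the protease stromelysin-1, was at 1821 CPM with, 281 without and 234 in Ctrl, and no cell held over 9.56% of its UMIs. Cpxm1, a secreted carboxypeptidase-like protein, was at 2403, 581 and 254 CPM in the same order. Scd1, a desaturase of fatty acid synthesis, was at 618, 124 and 115 CPM, and the 6 adipocyte markers summed to 58.5, 30.6 and 4.55 CPM in these cells. The part of adipocyte RNA in the Scd1 level was not tested. Grem1, a secreted BMP antagonist, was at 238, 44.8 and 77.5 CPM. Mmp3 and Scd1 were thus near the Ctrl level in AD cells without Cyp24a1, while Cpxm1 was above it. Tfpi2, Gm13889, Gng11 and Col23a1 also ranked among the 10 highest. For Wfdc17 and Hp, 46.1% and 38.1% of the UMIs lay in 1 cell.

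The lower genes included several of the interstitial progenitor list. Of its 6 genes, all at 20 CPM or more, 3 were at least 2-fold lower (2.25% of all 6320 genes at that level) and 0 higher, and the list's median log2 ratio was -1.16 against -0.07 over all these genes. Dpp4, a surface peptidase, was at 36.7 CPM with, 105 without and 287 in Ctrl, Col14a1 at 39.0, 106 and 515 CPM, and Sfrp4 at 9.07, 31.0 and 139 CPM. Clec3b, which encodes tetranectin, was at 44.1, 122 and 767 CPM. Chrdl1, Anxa3, Gm12840, Fmod, Abca8a and Ampd3 completed the list of lower genes with Hbb-bs and Hba-a1. These last encode haemoglobin chains, and 50% and 51.04% of their UMIs in the cells with Cyp24a1 lay in 1 cell. Of the 8 papillary genes, all at that level, 0 were 2-fold higher (1.50% of all genes) or lower (2.25%), which says little for a list this short. The lower genes were not confined to the progenitor list. Of 6 inflammatory ligands at 20 CPM or more, 2 were at least 2-fold lower and 0 higher, with a median log2 ratio of -0.76. Of 4 adipogenesis-regulatory genes, 1 was lower and 0 higher (median -0.54). Of 4 reticular or preadipocyte genes, 0 were lower or higher (median -0.06).

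Genes known as targets of the receptor showed no common direction. Of 16 listed targets besides the members, 7 were at 20 CPM or more and 1 was at least 2-fold higher in dFBs with Cyp24a1, against 1.50% of all genes, with a median log2 ratio of -0.08. That gene was Tnfsf11, which encodes RANKL, at 21.6 CPM with, 5.78 without and 0.472 in Ctrl, a log2 ratio of 1.90 (1.54 to 2.26). It was detected in 10.6% and 2.06% of the AD cells. Igfbp3, a binding protein for insulin-like growth factors, went the other way. It was at 4163 CPM with and 8309 CPM without, and both were far above the 516 CPM of Ctrl. Cdkn1a, the cell cycle inhibitor p21, was at 526, 836 and 264 CPM. Igfbp3 and Cdkn1a were therefore highest in AD cells in which Cyp24a1 was not detected. Between the libraries, 7 targets, of which not all were the same genes, were at 20 CPM or more in either library. Of these, 4 (Igfbp3, Spp1, Cdkn1a and Cebpb) were at least 2-fold higher in AD dFBs, against 7.31% of 7032 genes, and 0 were lower (11.9%). Their median log2 ratio was 1.45 against -0.05 over these 7032 genes. Of 9 cofactors of the receptor and 8 other partners of RXR at 20 CPM or more, 0 were 2-fold higher or lower in dFBs with Cyp24a1. Of all 6320 genes at that level, 1.50% were higher and 2.25% lower, so a count of 0 says little about lists this short.

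Several of these genes were ordered when cells were split by the number of Cyp24a1 UMIs. From 0 through 1, 2 to 5 and 6 to 20 to at least 21 UMIs (4125, 201, 93, 93 and 59 dFBs), Mmp3 was at 278, 777, 1576, 2400 and 3038 CPM. Igfbp3 was at 8267, 6392, 4659, 2251 and 2219 CPM. Each next class was thus higher in Mmp3, and Igfbp3 was lower up to 6 to 20 UMIs, after which its intervals overlapped. Cyp26b1, an enzyme that breaks down retinoic acid, was at 670, 1224, 1599, 2332 and 2107 CPM. Vdr had no such order, with 21.5, 40.3, 51.3, 25.1 and 34.0 CPM. Median depth went from 7067 UMIs in the lowest class to 15414 in the highest, and its part in these values was not tested. KC markers summed to 42.9 CPM with and 26.0 CPM without Cyp24a1, against 8134 CPM in AD KCs.

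**Figure D4:**
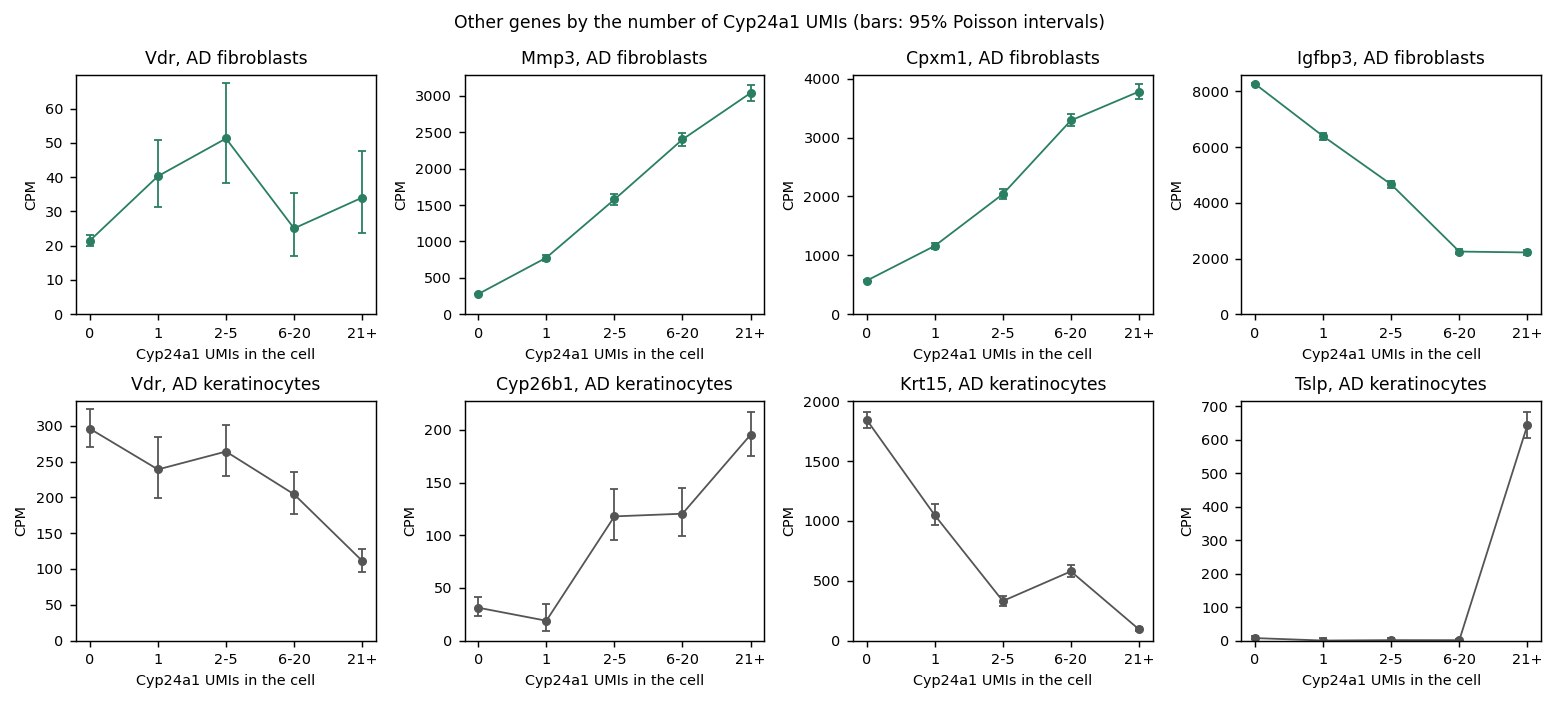
CPM of 4 genes in AD dFBs (top) and of 4 in AD KCs (bottom) by the number of Cyp24a1 UMIs in the cell, with 95% Poisson intervals. Mmp3 and Cpxm1 are higher in each next class of dFBs and Igfbp3 is lower up to 6 to 20 UMIs, and Vdr and Krt15 are lowest and Tslp is highest (643 CPM) in the KCs with the most Cyp24a1.

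Among 399 AD KCs with Krt5 or Krt14, 230 (57.6%) had a Cyp24a1 UMI. Their median depth was 16086 UMIs against 7519 UMIs in the 169 without. Vdr was lower in the KCs with Cyp24a1, at 182 CPM (724 UMIs) against 295 CPM (481 UMIs), and 159 CPM in Ctrl. The log2 ratio was -0.69 (-0.86 to -0.52). It was -0.24 when depth was weighted to be equal and -0.16 in KCs without a Krt15 UMI, both with 1 CPM added. It turned to 0.87 when every AD cell with a Krt5 or Krt14 UMI was taken, whatever its type (332 with and 877 without Cyp24a1). By number of Cyp24a1 UMIs (0, 1, 2 to 5, 6 to 20, at least 21), Vdr was at 296, 239, 264, 204 and 111 CPM. The KCs with the most Cyp24a1 thus had the lowest Vdr level in CPM, but a Vdr UMI in 86.8% of cells against 74.7% of those without Cyp24a1. Their median depth was 24582 against 7475.5 UMIs, and its part in the levels by class was not tested. Rxra was at 41.0 CPM with and 53.9 CPM without, Rxrb at 28.7 and 30.0 CPM, and Cyp27b1 had 3 UMIs with and 0 without. Hr, a corepressor that binds the receptor, was at 219 and 193 CPM, both above the 63.6 CPM of Ctrl, and its interval of the log2 ratio included 0.

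Of 1747 genes with at least 100 CPM, 41 (2.35%) were at least 2-fold higher and 74 (4.24%) at least 2-fold lower in the KCs with Cyp24a1, and 35 and 47 when weighted to the same depth. Cyp26b1 was among the 10 highest, at 141 CPM with, 31.2 without and 17.7 in Ctrl, but its log2 ratio was -0.00896 over AD cells of any type with these keratins. Wnt10a, a Wnt ligand, was at 100.2, 21.4 and 19.98 CPM, Ass1, an enzyme of arginine synthesis, at 152, 30.0 and 24.6 CPM, and Pdk4, a kinase that restrains pyruvate oxidation, at 291, 50.8 and 25.4 CPM. Aldh3a1, Areg (amphiregulin, a ligand of the EGF receptor), Chil1, Klk8, Csta1 and Stfa1 completed the list. Of the Csta1 UMIs, 40.5% lay in 1 cell, and the Klk8 level, 110 CPM, was no higher than the 125 CPM of Ctrl.

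Among the lower genes, Krt15, a keratin of basal and follicle stem cells, was at 385 CPM with, 1849 without and 763 in Ctrl. Of the 5 hair follicle genes at 20 CPM or more, 2 were at least 2-fold lower, against 5.26% of 6729 genes, and the median log2 ratio was -0.89 against -0.09 over those genes. These were Lgr5 (33.5, 145 and 70.3 CPM) and Lhx2 (52.6, 175 and 213 CPM), a receptor and a transcription factor of follicle stem cells. Sox9, another follicle factor, was at 471 and 874 CPM. Col17a1, a hemidesmosome collagen of basal cells, was at 410 and 934 CPM. Of the 6 listed basal genes, all at 20 CPM or more, 2 (Krt15 and Col17a1) were at least 2-fold lower and 4 were within 2-fold. The median log2 ratio of these 6 was -0.37. Of 3 suprabasal genes at 20 CPM or more, 1 was at least 2-fold lower (5.26% of all genes) and 0 higher. Their median log2 ratio was -0.86, close to that of the follicle genes. Markers of other types differed in the same comparison. Melanocyte markers summed to 20.9 CPM with and 109 CPM without Cyp24a1, pericyte markers to 38.8 and 105 CPM, dFB markers to 64.7 and 111 CPM, and Schwann cell markers to 1.51 and 13.5 CPM. The part of cell type or of RNA from other cells in these genes and in Vdr was not tested. Postn, Hmcn1, Cd200, Id4 and S100a4 were also among the 10 lowest, and S100a4 turned to 0.77 on the log2 scale in KCs without a Krt15 UMI. In Hbb-bs, Ccl4, Krt10 and Elovl6, 99.3%, 56.3%, 44.7% and 57.6% of the UMIs without Cyp24a1 lay in 1 cell.

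Tslp, the cytokine that MC903 is known to induce in KCs, had the largest ratio among the 6 listed targets at 20 CPM or more, and 1 of these 6 was 2-fold higher (2.94% of all genes). It was at 284 CPM with Cyp24a1, 7.35 without and 1.74 in Ctrl. This rested on few cells, since 19 of 230 KCs with Cyp24a1 (8.26%) and 4 of 169 without (2.37%) had a Tslp UMI. Of 1140 Tslp UMIs in AD KCs, 1128 lay in the 19, and 7 cells with at least 10 UMIs held 1095. Each of those 7 had between 47 and 346 Cyp24a1 UMIs, and the highest held 38.2% of all. In dFBs, Tslp was lower with Cyp24a1 (5.57 against 12.2 CPM). Between the libraries, 2 of 6 targets at 20 CPM or more were at least 2-fold higher in AD KCs (5.93% of 7105 genes), namely Tslp (1.85 in Ctrl and 201 CPM in AD) and Igfbp3 (44.2 and 173 CPM). Of 10 cofactors, Hr was 2-fold higher (65.2 and 210.2 CPM). Baz1b (205 and 87.4 CPM) and Pdia3 (338 and 161 CPM) were 2-fold lower (10.3% of those genes). Igfbp3 reached 7720 CPM in AD dFBs, far above its level in AD KCs. The dFB markers summed to 77.5 CPM in AD KCs, against 3342 CPM in AD dFBs. The part of dFB RNA in the Igfbp3 level of AD KCs was not tested. S100a8 and S100a9, which encode calprotectin, were at 63.7 and 111 CPM with Cyp24a1, but 90.5% and 95.3% of their UMIs lay in 1 cell. The 6 neutrophil markers, which include S100a8 and S100a9, summed to 194 CPM with and 11.6 CPM without.

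**Figure D5:**
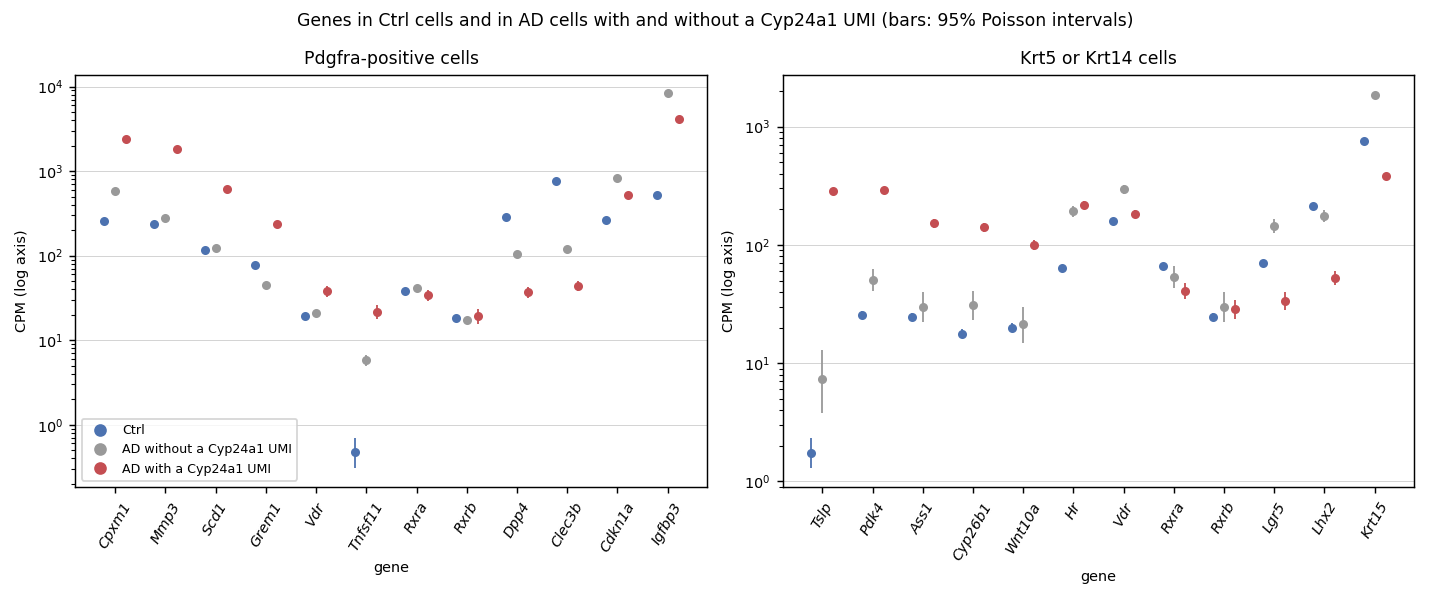
CPM (log axis) of the named genes in Ctrl cells (blue) and in AD cells without (grey) and with (red) a Cyp24a1 UMI, for Pdgfra-positive and for Krt5 or Krt14 cells, with 95% Poisson intervals. Vdr is higher with Cyp24a1 in the former (37.9 against 21 CPM) and lower in the latter (182 against 295 CPM), and Igfbp3 and Krt15 are highest in AD cells without a Cyp24a1 UMI.

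The other types were too few for a list of genes. Of 106 adipocytes, 24 had a Cyp24a1 UMI, and Vdr was at 106 CPM (80.3 to 137) in these and 11.7 CPM (6.83 to 18.8) in the other 82, in the direction seen in dFBs. Rxra was at 63.3 CPM and 106 CPM. The adipocyte markers summed to 3601 and 5004 CPM, and KC markers to 70.7 and 68.3 CPM. In macrophages, Vdr was at 44.7 CPM (11 UMIs) with and 60.4 CPM without, with overlapping intervals.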

How the data were processed

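Dorsal skin was profiled with 10x 3′ libraries, 1 per group. The authors deposited raw UMI counts per gene and barcode, not normalized, aligned to mm10. The matrix headers name Cell Ranger 5.0.0 and the submitters' notes name 3.1.0, while the study's methods name a later version than either. Seurat was used by the authors downstream. The deposited barcodes had at least 502 (Ctrl) and 501 (AD) UMIs but were not yet cut at the limits of the study's methods (under 200 or over 6000 genes, or over 10% mitochondrial UMIs), which were applied here. Cells were gated by 13 lists of 6 markers. No doublet caller was run; cells with at least 3 markers of a second type were left out as an alternative. Counts were summed per type and library and divided by the total UMIs of those cells. Poisson, Clopper-Pearson and conditional binomial intervals (95%) were computed with Python 3.11.15, numpy 2.4.6, scipy 1.17.1 and pandas 2.3.3. A count of 0 allows 3 counts per class and library. The calculation of ratios was checked on simulated counts, which tests no difference between the libraries.

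The named genes were the 5 members, listed pathway genes with up to 4 values per list, and the 10 highest and 10 lowest log2 ratios (1 CPM added) among genes with at least 100 CPM and a UMI in at least 20 cells of the higher group. The genes most like Cyp24a1 and Vdr were the 5 with the largest correlation. Other named genes, the levels by number of Cyp24a1 UMIs, the shares held by 1 cell and the cells over 6000 genes and the keratinocyte state, Krt15 and Grem1 splits were chosen after their values were seen. The members and lists were chosen with earlier results of these data known. No genome sequence was used beyond the RefSeq promoter windows.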

Additional observations from a re-analysis of the deposited data

Results flagged for a closer look

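Rxra differed in direction between cell types when AD was set against Ctrl. Its log2 ratio was 0.73 (25 and 46 UMIs) in pericytes or smooth muscle cells and 1.01 (20 UMIs in each library) in Schwann cells, while it was -0.61 in keratinocytes, -0.84 in T cells and -0.64 in macrophages. All 5 counting intervals left out 0, though the lower bound in pericytes was 0.0018. The pericyte value was 0.38 when cells with markers of a second type were left out, and the Schwann value was 0.40 when at least 4 markers were required.

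Vdr also differed in direction within AD, with a log2 ratio of cells with over without a Cyp24a1 UMI of 0.86 in Pdgfra-positive cells and -0.69 in Krt5 or Krt14 cells. With 1 library per group, none of these differences was tested.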

How the results depend on the processing

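No paired analysis was possible because each group had 1 library, and leaving out a replicate was not possible either. Of 91 alternative values of the main results, 60 stayed within the counting interval (for gene counts, within 1.5 times) and 31 did not. Cyp24a1 in AD fibroblasts and keratinocytes was 95.5 and 1301 CPM with all barcodes, 69.2 and 819 CPM as a mean per cell, 94.8 and 1179 CPM without cells of a second class, and 126 and 1456 CPM without mitochondrial and the 50 most abundant genes. It was 113 CPM in fibroblasts with 4 markers required. Thinned to 1000 and 3000 UMIs, the shares were 3.35% and 6.69% in fibroblasts and 32.5% and 44.4% in keratinocytes. The Vdr log2 ratio of AD over Ctrl in fibroblasts was 1.22 with all barcodes and 0.11 as a mean per cell. In keratinocytes it was 0.00087 with all barcodes and 0.31 in those with mostly Krt5 and Krt14. In Pdgfra-positive cells, 15 genes were higher and 11 lower when weighted by depth, 95 and 142 at 20 CPM, and the lower genes were 91 with at least 2 Cyp24a1 UMIs required, 27 as means per cell and 23 without Grem1 cells. In Krt5 or Krt14 cells, 119 were higher and 299 lower over cells of any type, 191 and 300 at 20 CPM with 20 cells required, and the lower genes were 47 by depth, 46 as means per cell and 38 without Krt15 cells. Of the 20 genes of either list, 18 to 20 kept a 2-fold difference in Pdgfra-positive cells and 14 to 20 in Krt5 or Krt14 cells.

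Ratios that turned in Krt5 or Krt14 cells were Cyp26b1 (-0.00896) and Vdr (0.87) over cells of any type, Igfbp3 (0.027) without cells of a second class, Rxra (0.12) as a mean per cell, and S100a4 (0.77) without Krt15 cells. The causes were not tested. Depth limits Cyp27b1 above all, and Cyp24a1 in a cell without a UMI was not detected rather than absent. The choices on shared barcodes, keratin states, Krt15 and Grem1 were made after seeing the data.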

Other observations

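The cells that the filter on more than 6000 genes removed had leading genes of their own. Against the dFBs that were kept, the 96 AD dFBs over the limit were led by Wnt10a (161 against 3.51 CPM), Lef1 (378 against 13.8 CPM), Tfap2c (277 against 10.5 CPM), Notum (101 against 3.25 CPM) and Prlr (1248 against 51.5 CPM), the first 5 of genes with at least 100 CPM. Lef1 is a transcription factor of Wnt signalling, Notum a secreted inhibitor of Wnt ligands, and Prlr the prolactin receptor. Lef1 was detected in 94.8% of these cells and Pdgfra in all of them (795 against 725 CPM), while Krt14 was at 6.78 CPM against 11.1 CPM in kept dFBs and Mki67 at 3.87 CPM. The 105 AD KCs over the limit, which had the higher Cyp24a1 level, were led by histone and cell cycle genes. Among these were Pclaf (120 against 10.2 CPM), Top2a (171 against 25.6 CPM) and Mki67 (211 against 57.2 CPM). These genes were looked for after the Vdr values of the cells had been seen.

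Profiles were compared by Pearson's r of log2 CPM over 19 points, each a cell type in 1 library with at least 50 cells. Of 8074 genes, the most like Cyp24a1 was ENSMUSG00000121137 (r = 0.85), at 1248 CPM in AD KCs and 137 CPM in Ctrl KCs. Mettl6, Snhg3, Zc3h6 and Vmp1 followed (0.80 to 0.84). The genes most like Vdr were Parl (0.82), Cops5 (0.78), Tomm40 (0.76), and Cebpa and Psma4 (0.72 each). The points share 2 libraries, so these values are a description.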
